A study of Mus musculus with 8 samples.

Results

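Expression was compared between the livers of Pemt-/- and Pemt+/+ mice during the first 2 weeks on HFHS, a diet high in fat and sucrose. The comparison rests on 4 of the 8 arrays of the series, chosen by their labels: the Pemt-/- arrays of week 1 and week 2, and the Pemt+/+ arrays of the same weeks. Pemt-/- mice lack phosphatidylethanolamine N-methyltransferase, Pemt+/+ mice are their wild-type counterparts, and both received the HFHS diet, so no array shows liver before the diet or on another chow. The mice of the study were male according to its methods, and the age at the start of the diet is not given in the sources used here. Each genotype had 1 array per week. The labels leave unstated if 1 mouse or a pool of mice stood behind an array. The p-values below measure the spread of the genotype difference between arrays of different weeks. That spread mixes scatter between samples, which may be technical, with change over the weeks. The other 4 arrays, of weeks 3 and 4 (called the late weeks), were used for a shared estimate of that spread and for 1 comparison with the early weeks.

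Pemt converts phosphatidylethanolamine to phosphatidylcholine by adding methyl groups taken from S-adenosylmethionine. The liver otherwise makes phosphatidylcholine from choline through the CDP-choline pathway, and it needs this lipid for membranes, for bile and for the export of triglyceride in very low density lipoprotein. Loss of Pemt is known to leave mice prone to a fatty liver. Liver tissue holds hepatocytes together with Kupffer cells (the resident macrophages), stellate cells, endothelial cells and bile duct cells, so that a difference in bulk RNA may be one of cell number or of RNA per cell, which cannot be told apart here.

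All values are intensities of Affymetrix probe sets on a linear scale, scaled by the authors to a trimmed mean of 500 on every array. Differences are of log2(intensity + 16), Pemt-/- minus Pemt+/+, where 1 is a 2-fold difference; the constant makes the change of dim genes look smaller. A gene was read through its probe set with the highest mean, and 12949 genes passed a filter on low intensity. The early difference is the mean of the week 1 and week 2 differences with its standard error (SE) from limma, called at a Benjamini-Hochberg adjusted p under 0.05. The labelled tissue was borne out by its markers: Alb, serum albumin, measured 33425 and 44501 in Pemt-/- at weeks 1 and 2 and 40661 and 47725 in Pemt+/+. Of the 169 markers of 11 cell types found on the array, 0 were listed at an intensity of 0 on any early array. The lowest was at 1.17, and without detection calls a value above 0 does not show that a marker was expressed.

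The 4 arrays were not equally alike. The Pemt-/- arrays of weeks 1 and 2 differed by 2-fold or more from each other in 505 genes and the Pemt+/+ arrays of these weeks in 614 genes, whereas the genotypes differed in 1171 genes at week 1 and in 1097 genes at week 2. The Pemt+/+ array of week 2 stood apart on some acute phase genes: Saa2, an acute phase apolipoprotein, measured 1803 at week 1 and 32453 at week 2. Over the 20 acute phase genes tested, the median of week 1 minus week 2 was -0.22 in Pemt+/+ and -0.19 in Pemt-/-, so the medians moved alike. Single members did not: in 3 of the 20 the genotype difference passed the limma test of week 1 against week 2 given below, against 0.154% of all genes. The median intensity of the Pemt-/- array of week 2 was 73.8, against 78.2 to 80.0 on the other 3 early arrays. Every week 2 value below rests on these 2 arrays, and each difference is therefore given by week. Among the late arrays, that of Pemt+/+ at week 4 stood apart on some adipocyte genes. Adipoq measured 1081 on it and 62.1 or less on all others, and Fabp4 8641 against 794 to 2110. It lay 2-fold or more above all others of its genotype in 56 genes, where the other arrays did so in 11 to 25. This array is part of the shared spread and of every late difference, and its effect on them was not tested. The genotype differences of weeks 1 and 2 correlated across the 12949 genes at r = 0.45, and those of weeks 3 and 4 at r = 0.73; genes are not independent replicates, so these are descriptions.

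At week 1, 815 genes were 2-fold or more higher in Pemt-/- (6.29% of the genes) and 356 were 2-fold or more lower (2.75%). At week 2 these numbers were 661 (5.1%) and 436 (3.37%). In both weeks 311 genes were higher (2.4%) and 86 were lower (0.664%). The genes higher in both weeks made up 38.2% of those of week 1 and 47.0% of those of week 2, and the genes lower in both weeks 24.2% and 19.7%. With 1 array per genotype and week these counts carry no test. In the limma fit 506 genes rose (3.91%) and 211 fell (1.63%) over the 2 early weeks. That count depends on an assumption of the fit: eBayes with an intensity trend called 717 genes, and eBayes without it called 2, Mmp12 and Pemt, although 2188 genes had an unadjusted p under 0.05 without the trend and 2857 with it. Without the week 2 arrays 1119 genes were called, 593 higher and 526 lower.

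**Figure D1:**
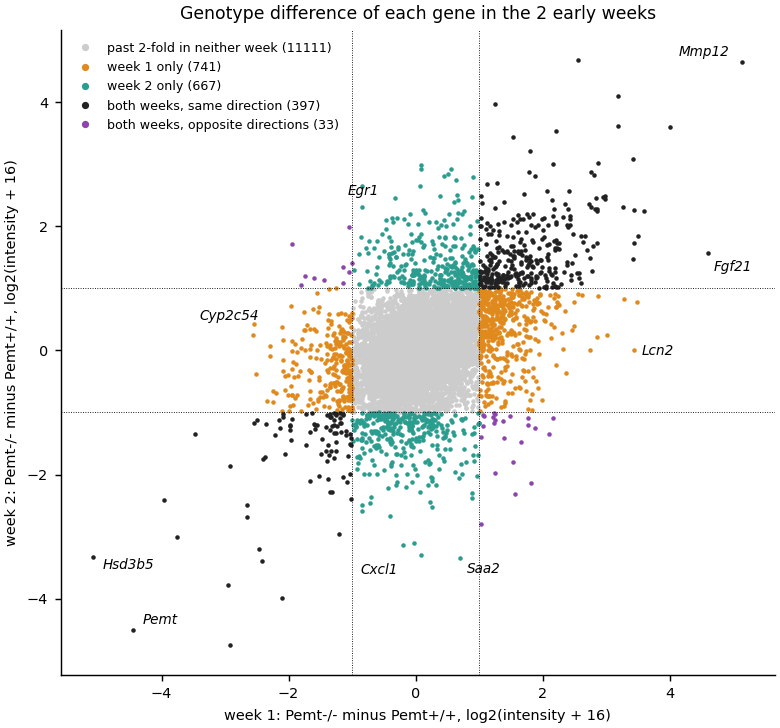
Each point is 1 of 12949 genes, placed by its difference in log2(intensity + 16) between Pemt-/- and Pemt+/+ at week 1 (horizontal) and at week 2 (vertical); dotted lines mark 2-fold. The 397 genes past 2-fold in the same direction in both weeks lie at the upper right and lower left, while Lcn2 lies far to the right at a week 2 difference of 0.01 and Saa2 and Cxcl1 lie far down at week 1 differences of 0.69 and 0.08.

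The targeted gene was low on both Pemt-/- arrays. Pemt measured 237 and 203 in Pemt-/- and 5491 and 4989 in Pemt+/+ at weeks 1 and 2. The genotypes were far apart in both weeks, with an early difference of -4.48 ± 0.15 (SE, adjusted p = 1.04e-05, limma). The position of its probe set relative to the deletion is unknown here.

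The genes that were higher in Pemt-/- in both weeks included, among the 12 largest rises, genes of macrophages, lipid storage, cell division and detoxification. Mmp12, the macrophage elastase, measured 786 and 512 in Pemt-/- at weeks 1 and 2 and 6.69 and 5.16 in Pemt+/+, with an early difference of 4.89 ± 0.28 (SE, adjusted p = 0.000188, limma). Gpnmb, a glycoprotein of lipid-laden macrophages, measured 778 and 768 against 57.7 and 76.0, a difference of 3.26 ± 0.21 (adjusted p = 0.000277). Mmp13, a collagenase, measured 187 and 124 against 11.7 and 1.25 (2.95 ± 0.41, adjusted p = 0.00794). On all 3 the lower Pemt-/- array lay well above the higher Pemt+/+ array, as their choice by the size of the difference makes likely.

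Pparg, the nuclear receptor that drives lipid storage in fat cells, stood at 492 and 316 in Pemt-/- and at 39.5 and 11 in Pemt+/+, a difference of 3.41 ± 0.26 (adjusted p = 0.000657). Fgf21, a hormone that the liver releases under metabolic stress, stood at 4121 and 494 against 155 and 155. The Pemt+/+ arrays were alike, the Pemt-/- arrays were not, and the early difference of 3.09 ± 0.60 passed the test (adjusted p = 0.0271) but not without the week 1 arrays (adjusted p = 0.0904), without the week as a block (0.0742) or with quantile normalization (0.0552). Serpina7, the thyroxine-binding globulin, stood at 6152 and 3147 against 660 and 168 (3.65 ± 0.45, adjusted p = 0.0047).

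Mki67, a marker of dividing cells, gave 1094 and 754 in Pemt-/- and 75.6 and 146 in Pemt+/+, and Ect2, which acts in the final separation of dividing cells, gave 430 and 397 against 80.3 and 19.5. Both rose (2.92 ± 0.43, adjusted p = 0.00912, and 2.88 ± 0.43, adjusted p = 0.0101). Gstm3, a glutathione transferase, gave 8616 and 6582 against 1219 and 910, and its difference was nearly the same at week 1 (2.80) and week 2 (2.83). The remaining genes among the 12 largest rises were Ly6d, a surface antigen (early difference 3.81), Rad51b, a factor of DNA repair (3.62), and Ubd, a ubiquitin-like modifier (2.85). Rad51b was uneven within Pemt+/+, at 368 in week 1 and 11 in week 2, and was not called without the week as a block (adjusted p = 0.0741).

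The genes lower in Pemt-/- in both weeks included, among the 12 largest falls, several known for higher expression in male than in female mouse liver. Hsd3b5, a steroid dehydrogenase, measured 487 and 1650 in Pemt-/- and 16978 and 16638 in Pemt+/+ (-4.20 ± 0.40, adjusted p = 0.00195). Elovl3, which lengthens fatty acids, measured 1557 and 5853 against 24652 and 31044 (-3.19 ± 0.33, adjusted p = 0.00242). Cyp7b1, the oxysterol hydroxylase of the alternative route of bile acid synthesis, measured 1111 and 2203 against 8682 and 30423 (-3.36 ± 0.27, adjusted p = 0.00082). The Pemt-/- array of week 2 was nearer to Pemt+/+ than that of week 1 for Hsd3b5 and Elovl3.

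Among the other large falls, the carboxylesterases Ces2b (72.7 and 118 against 655 and 3587) and Ces4a (79.7 and 60.5 against 497 and 785) were lower on both Pemt-/- arrays. The glucuronosyltransferase Ugt2b38, the organic anion transporter Slc22a7 and the major urinary protein Mup10 had early differences of -3.38, -2.58 and -2.67. Serpina12, known as the adipokine vaspin, was at 501 and 1131 against 2829 and 10508, and Scara5, a ferritin receptor, at 11.6 and 72.9 against 103 and 1397; for both, 1 of 2 probe sets passed the test, and Scara5 had an adjusted p of 0.128 without the week as a block. The list closed with Serpina4-ps1 (-2.42 ± 0.39, adjusted p = 0.0135), a pseudogene of the serpin family. Ugt2b38, Mup10 and the Ces2, Cyp2c, Cyp4a and Saa genes have near-identical relatives, so their probe sets may take up signal of more than 1 gene.

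**Figure D2:**
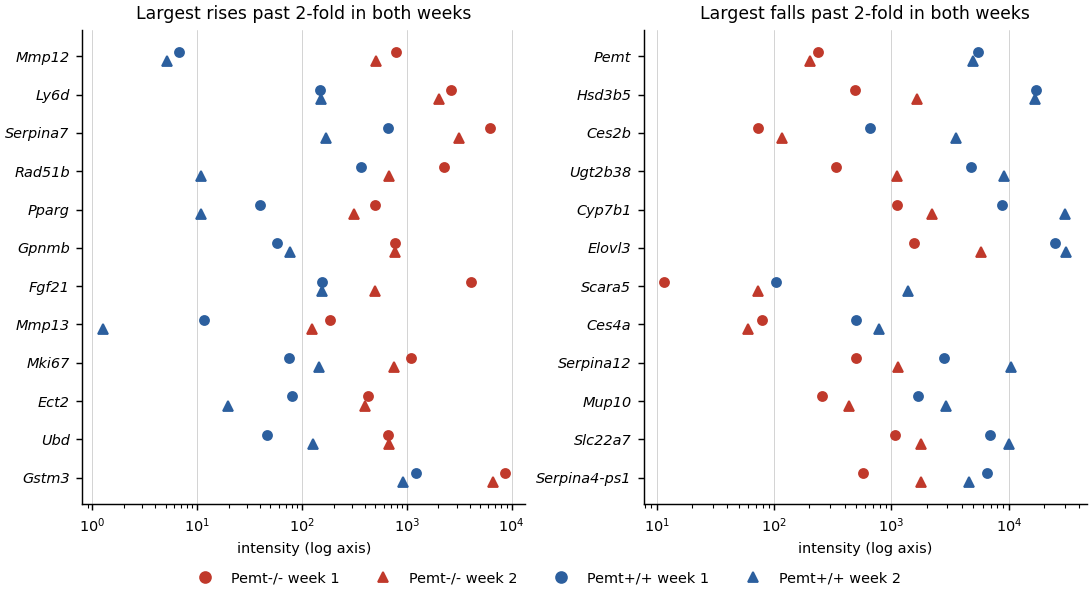
Intensity on each of the 4 early arrays (log axis; circles week 1, triangles week 2; red Pemt-/-, blue Pemt+/+) of the genes called and past 2-fold in both weeks that had the 12 highest and the 12 lowest early differences. No red symbol overlaps the blue ones in any row, which the choice of genes by these same arrays makes likely. Fgf21 shows a wide gap between its red symbols (4121 and 494) and Rad51b one between its blue symbols (368 and 11).

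The late weeks were set beside the genes of both early weeks. The 2-fold rule read the early arrays alone, while the intensity filter, the choice of probe set and the spread in the test used all 8 arrays. Of the 311 genes higher in both early weeks, 243 (78.1%) were 2-fold or more higher at weeks 3 and 4 as well, against 6.16% of all genes. Of the 86 lower genes, 39 (45.3%) were 2-fold or more lower in both late weeks, against 1.64% of all genes. Of the 397 genes, 312 had passed the early test.

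Of the genes the study followed, 3 rose and 2 fell. Mki67, which rose, and Pemt, which fell, are given above. Ccnd1, cyclin D1, which drives entry into the cell cycle, measured 5341 and 4845 in Pemt-/- and 1106 and 1448 in Pemt+/+ (1.99 ± 0.23, adjusted p = 0.00391). Afp, the fetal serum protein, measured 196 and 381 against 65.3 and 116 (1.49 ± 0.24, adjusted p = 0.0147; 0.0507 without the week 2 arrays), and 1 of its 3 probe sets passed. Hnf4a, a transcription factor that maintains the hepatocyte state, measured 9658 and 8515 against 12698 and 13836, a difference of -0.55 ± 0.12 (adjusted p = 0.0379). This last call was lost with quantile normalization (adjusted p = 0.116), with median centring (0.0707), without the week as a block (0.0653) and without week 2 (0.0608).

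Apart from these and from Mki67 and Pemt, the genes that the study followed did not pass over the early weeks. Fbxo31, an F-box protein that targets cyclin D1 for degradation, measured 248 and 290 in Pemt-/- and 328 and 474 in Pemt+/+ (-0.53 ± 0.20, adjusted p = 0.194). Cdkn1a, the cell cycle inhibitor p21, measured 1820 and 1276 against 510 and 1264. The week 1 arrays were far apart and the week 2 arrays were not, with an early difference of 0.91 ± 0.34 (adjusted p = 0.192) and an adjusted p of 0.0507 for week 1 against week 2. Cltc, the clathrin heavy chain, had a difference of 0.31 (adjusted p = 0.161), Acta2, smooth muscle actin, 0.44 (adjusted p = 0.149), Akt1 0.39 and Tgfb1 0.70. Krt19, a bile duct keratin, was at 93.4 and 108 against 80.9 and 175, a difference of -0.22.

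Gene lists for cell types and pathways were then counted; they were chosen with earlier results of these data known, and some share members. The background for each count is the share of all genes that rose (3.91%) or fell (1.63%), and the median early difference of all genes was 0.013. Of the 114 named genes called, 27 were not called without the week as a block (adjusted p from 0.0521 to 0.276). Beside those given with their values, these were Acss2, Apoa4, Cela1, Gbp3, Hyou1, Ifi27l2a, Igfbp3, Insig1, Jun, Lepr, Lpin1, Mcm5, Slco1a4, Socs2, Thrsp, Trib3, Ttc39c and Uhrf1. With quantile normalization 13 were not called (0.0552 to 0.116), among them Cxcl10, Fgb, Ifi27l2a, Socs2, Socs3, Ttc39c and Uhrf1. The plot of the list medians orders 38 lists by their early difference, from the cell cycle genes at the top to the male-biased genes at the bottom.

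**Figure D3:**
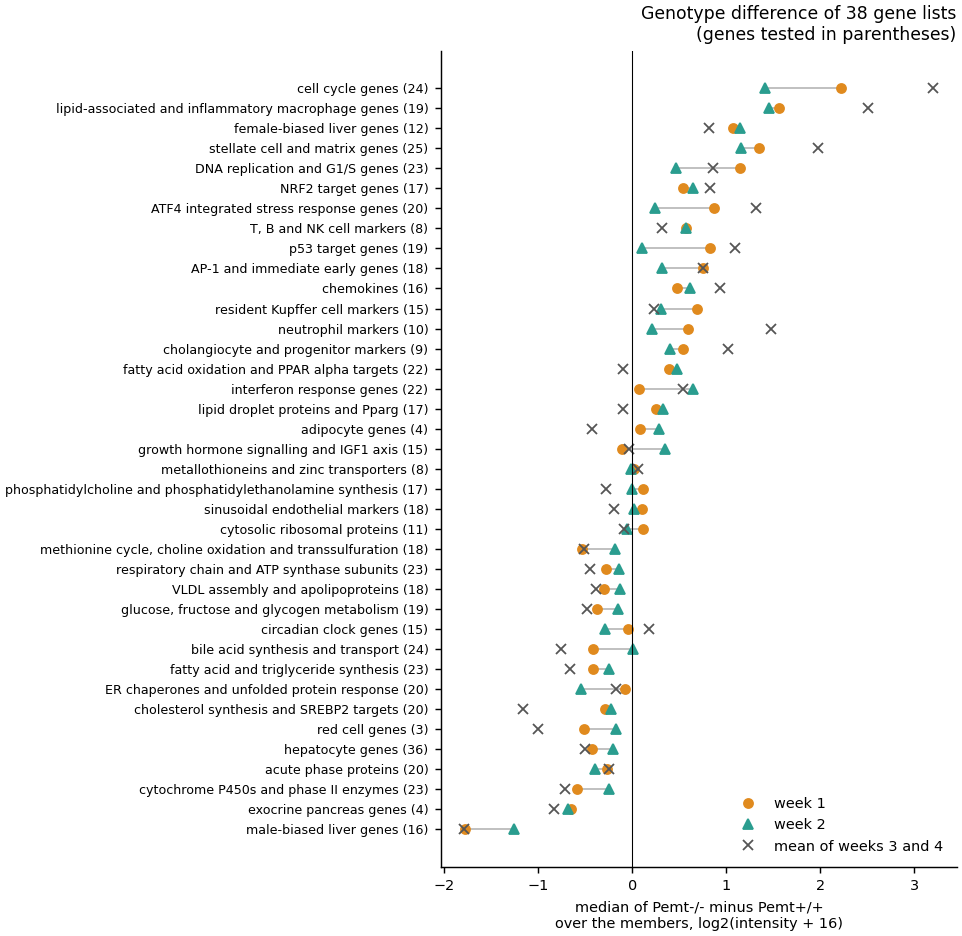
Median difference in log2(intensity + 16) between Pemt-/- and Pemt+/+ over the tested members of 38 gene lists, at week 1 (circles), week 2 (triangles) and as the mean of weeks 3 and 4 (crosses); the number of tested genes follows each name. Cell cycle, macrophage and stellate cell lists lay to the right in both early weeks and further right later, male-biased genes lay to the left throughout, and fatty acid oxidation genes lay to the right early and near 0 later.

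Of the 19 tested genes of lipid-associated and inflammatory macrophages 16 rose and 1 fell, with medians of 1.56 at week 1 and 1.46 at week 2. Lgals3, galectin 3, measured 2314 and 2157 in Pemt-/- and 326 and 282 in Pemt+/+ (2.82 ± 0.14, adjusted p = 0.000165). Trem2, a lipid receptor of these cells, measured 194 and 117 against 23.4 and 6.44 (2.49 ± 0.32, adjusted p = 0.00537). Ccr2, the receptor that draws monocytes into tissue, measured 320 and 246 against 67.6 and 52.4 (1.97 ± 0.24). The genotypes did not overlap for any of them, which adds no support, since they were named for large differences on these same arrays. The member that fell was Fabp5, a fatty acid binding protein that hepatocytes also express, at 7423 and 9229 against 13627 and 20834. Summed over the 19 genes, the intensity was 44021 to 47173 in Pemt-/- and 30976 to 38383 in Pemt+/+, a sum in which Fabp5 has a large part.

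Of 15 resident Kupffer cell markers 5 rose and none fell, and 11 lay above 0 in the early difference. Not all members moved this way. Clec4f was at 2486 and 2780 in Pemt-/- against 2363 and 2267 in Pemt+/+, Folr2 at 660 and 589 against 656 and 806, and Cd163 at 319 and 336 against 483 and 441. Marco, a scavenger receptor, measured 2508 and 1322 in Pemt-/- and 452 and 314 in Pemt+/+ (2.23 ± 0.22, adjusted p = 0.00195), and the complement genes C1qa, C1qb and C1qc and Cd5l, a macrophage apoptosis inhibitor, rose by 0.75 to 0.99. C1qa was not called without week 1 (adjusted p = 0.0557). Adgre1, which encodes the macrophage marker F4/80, was at 1337 and 916 against 782 and 722 and did not pass (0.55 ± 0.17, adjusted p = 0.115). The summed intensity of the 15 genes was 33938 to 42080 in Pemt-/- and 24903 to 25707 in Pemt+/+.

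Of 10 neutrophil genes 2 rose: S100a8 and S100a9, the calprotectin subunits, with differences of 1.93 and 1.59 (S100a9 had an adjusted p of 0.0591 without week 1). Of the 8 genes of T, B and NK cells none passed in limma, with 3 at an unadjusted p under 0.05; Ccl5, a chemokine, had a difference of 1.12 (adjusted p = 0.108). Of the 3 red cell genes Alas2, the first enzyme of haem synthesis in red cells, fell (-1.38). Of 9 genes of bile duct cells none passed in limma and 3 had an unadjusted p under 0.05, with Prom1 at 634 and 184 against 99.8 and 136. Of 18 endothelial genes 1 rose, the fatty acid transporter Cd36, which other liver cells express too.

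Stellate cell and matrix genes were higher throughout: all 25 lay above 0 in the early difference, 19 rose and none fell, with medians of 1.35 and 1.15. Timp1, an inhibitor of matrix proteases, measured 230 and 181 in Pemt-/- and 24.7 and 38.8 in Pemt+/+ (2.22 ± 0.29, adjusted p = 0.00557). Col1a2, a chain of type I collagen, measured 6646 and 5085 against 1771 and 2217 (1.55 ± 0.17, adjusted p = 0.00337). Col1a1, the other chain, had a difference of 1.53 and was not called without week 1 (adjusted p = 0.0528). Collagen differences were larger at week 1 (1.90 for both chains) than at week 2 (1.19 and 1.17), though not beyond the spread (adjusted p = 0.211 and 0.492 for week 1 against week 2). The summed intensity of the 25 genes was 63820 to 72641 in Pemt-/- and 28331 to 30958 in Pemt+/+.

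Hepatocyte genes went the other way by small amounts. Of 36 tested 11 fell and none rose, and the medians were -0.43 at week 1 and -0.21 at week 2, or -0.09 and -0.04 with quantile normalization. F11, coagulation factor XI, measured 1577 and 2170 in Pemt-/- and 3705 and 3946 in Pemt+/+ (-1.04 ± 0.14, adjusted p = 0.00633). Cebpa, a transcription factor of hepatocytes, fell by 0.74, Cyp1a2, a xenobiotic oxidase, by 0.79 and Hamp, the iron hormone hepcidin, by 0.85, the last with an adjusted p of 0.115 without the week as a block. The summed intensity of the 36 genes was 832838 to 994955 in Pemt-/- and 1138836 to 1189239 in Pemt+/+. With week 2 left out 26 were called, with quantile normalization 5 and with median centring 6. The sums of the macrophage, stellate and hepatocyte lists moved with the genotype as did the genes described next, and their part in those differences was not tested.

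Cell cycle genes were the list with the highest median. All 24 tested genes were 2-fold or more higher at week 1 and 18 were so at week 2, the medians were 2.21 and 1.41, and 15 rose in the test. Cdc20, an activator of the anaphase-promoting complex, measured 1692 and 2221 in Pemt-/- and 162 and 433 in Pemt+/+ (2.79 ± 0.25, adjusted p = 0.0015). Plk1, a mitotic kinase, measured 292 and 316 against 23.7 and 44.2 (2.71 ± 0.33, adjusted p = 0.00447). Ube2c, which marks mitotic proteins for degradation, measured 1150 and 856 against 86.5 and 227 (2.68 ± 0.37, adjusted p = 0.00779). The smaller difference at week 2 came with higher Pemt+/+ values in that week for each of these 3 genes.

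Because these genes moved together, their promoters were read. Many cell cycle genes are known to carry the hexamer TTTGAA, the cell cycle genes homology region, and the box CCAAT, bound by NF-Y. RefSeq promoter windows (assembly GRCm38.p6) were matched by symbol for 20 of the 24 genes, and the 150 bases before each start were searched on both strands for these letters; the motifs can share 1 base, and such matches were counted for both. TTTGAA was present in 8 of the 20 (40%) and in 10.5% of all 27025 genes with a window, CCAAT in 16 (80.0%) and in 27.7%, and both in 8 (40%) and in 2.63%. A gene with several windows was counted when any of them matched. A match is a description of letters and not of binding. For the 5 genes with the largest early differences 1 window each is shown, with matches to either motif in capitals. ATTGG and TTCAAA are the same motifs on the other strand. Ect2 has a further, overlapping window (chr3:27153855-27154004) that also holds both motifs and is not shown.
Mki67 (chr7:135716380-135716529, minus strand): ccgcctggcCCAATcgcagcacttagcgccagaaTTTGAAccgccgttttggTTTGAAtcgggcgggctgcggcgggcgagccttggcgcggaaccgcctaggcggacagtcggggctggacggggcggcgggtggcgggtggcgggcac
Ect2 (chr3:27153879-27154028, minus strand): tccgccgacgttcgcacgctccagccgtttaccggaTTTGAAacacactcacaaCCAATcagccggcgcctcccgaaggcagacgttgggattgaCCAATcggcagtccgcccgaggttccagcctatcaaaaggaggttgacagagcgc
Cdc20 (chr4:118437344-118437493, minus strand): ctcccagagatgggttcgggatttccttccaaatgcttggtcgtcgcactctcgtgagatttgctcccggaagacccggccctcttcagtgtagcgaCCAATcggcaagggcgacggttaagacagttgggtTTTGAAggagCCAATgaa
Plk1 (chr7:122159285-122159434, plus strand): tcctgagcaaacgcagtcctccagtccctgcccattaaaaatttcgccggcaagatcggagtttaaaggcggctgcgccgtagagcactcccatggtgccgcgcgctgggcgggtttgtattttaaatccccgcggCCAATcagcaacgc
Ube2c (chr2:164769779-164769928, plus strand): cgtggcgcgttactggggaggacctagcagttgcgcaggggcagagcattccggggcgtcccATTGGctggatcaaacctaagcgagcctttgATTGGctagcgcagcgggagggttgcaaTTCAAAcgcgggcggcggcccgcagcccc

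Genes of DNA replication and of the step into S phase were raised in part. Of 23 tested 10 rose and 1 fell, with medians of 1.14 and 0.47. Gins2, a subunit of the replicative helicase, measured 273 and 206 in Pemt-/- and 20.6 and 24.7 in Pemt+/+ (2.72 ± 0.33, adjusted p = 0.00459). Mcm5, another helicase subunit, measured 909 and 860 against 184 and 522, and was not called without week 1 (adjusted p = 0.149) or with quantile normalization (0.0659). Mcm10, a replication factor, was the member that fell (-1.18). Without week 1, 4 genes of the list rose. Of 19 p53 target genes 3 rose: Phlda3, an inhibitor of Akt (1.62), Plk2, a stress-induced kinase (0.80), and Trp53inp1 (0.53); none of the 19 was called without week 1, when Phlda3 had an adjusted p of 0.0859.

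Stress pathways differed in direction. Of 20 genes of the integrated stress response, which ATF4 controls, 6 rose: Fgf21, the transcription factor Atf3, the serine synthesis enzyme Psat1, the pseudokinase Trib3, asparagine synthetase Asns and the lipoprotein receptor Vldlr. Atf3 measured 504 and 366 in Pemt-/- and 128 and 67.5 in Pemt+/+ (2.02 ± 0.22, adjusted p = 0.00317). Without week 1, 2 of the 20 rose and 1 fell. Chaperones of the endoplasmic reticulum were lower, mostly at week 2. In the test 6 of 20 fell and none rose. The medians were -0.08 and -0.55, the first of which turned to 0.11 with quantile normalization. At week 1, 8 of the 20 lay above 0, and at week 2 the number was 0. The median of week 1 minus week 2 was -0.22 in Pemt+/+ and 0.32 in Pemt-/-, so the arrays of both genotypes moved. Derl3, which acts in the removal of misfolded proteins, measured 549 and 379 against 1124 and 1115 (-1.27 ± 0.19), and the disulphide isomerases Pdia6 and Pdia3 fell by 0.88 and 0.81. The call of Pdia3 was lost with quantile normalization (adjusted p = 0.0935), without week 2 (0.0521) and without the filter (0.0759).

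Targets of NRF2, a transcription factor of the response to oxidative and electrophilic stress, rose in 8 of 17 cases and none fell. They were 5 glutathione transferases (Gstm1, Gstm2, Gstm3, Gsta2 and Gsta4), the carbonyl reductase Cbr3, sulfiredoxin (Srxn1) and epoxide hydrolase 1 (Ephx1). Gsta2 measured 2404 and 2873 in Pemt-/- and 820 and 653 in Pemt+/+ (1.82 ± 0.18, adjusted p = 0.00224). Cbr3, at 689 and 256 against 108 and 77.4, was not called without week 1 (adjusted p = 0.051). The metal-binding metallothioneins rose as well: Mt2 measured 1010 and 1082 against 178 and 211 (2.34 ± 0.17, adjusted p = 0.000588) and Mt1 1365 and 2422 against 671 and 590 (1.51 ± 0.22), while the other 6 genes of the list, zinc transporters among them, did not pass.

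Of 18 immediate early genes 4 rose: Klf6, Atf3, Ier3 and Jun, a part of AP-1. Klf6, a zinc finger factor, measured 962 and 1148 in Pemt-/- and 249 and 149 in Pemt+/+ (2.35 ± 0.23, adjusted p = 0.00215). Interferon response genes rose in 4 of 22 cases, among them the guanylate binding proteins Gbp2 (1.29) and Gbp3 (1.04), while 8 of the 22 were 2-fold or more higher at week 2 and 3 at week 1. Gbp2 was not called without week 2 (adjusted p = 0.0737) and Gbp3 not without week 1 (0.051). Of 16 chemokines 2 rose, Cxcl10 and Ccl6, and Cxcl10 had an adjusted p of 0.154 without week 1.

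Lipid metabolism was divided. Fatty acid oxidation genes and targets of PPAR alpha, the receptor that turns on fat burning in fasting, rose in 8 of 22 cases and none fell; the same 8 genes were past 2-fold in both weeks. Acot2, a mitochondrial acyl-CoA thioesterase, measured 2347 and 1295 in Pemt-/- and 539 and 308 in Pemt+/+ (2.05 ± 0.15, adjusted p = 0.000587). Pdk4, the kinase that shuts off pyruvate oxidation, measured 1778 and 1848 against 539 and 413 (1.91 ± 0.16, adjusted p = 0.000978). Acot3, a peroxisomal thioesterase, measured 1194 and 389 against 151 and 67.1 (2.57 ± 0.28, adjusted p = 0.00311). Each of these was higher on both Pemt-/- arrays than on either Pemt+/+ array, which their choice by the size of the difference makes likely.

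Cyp4a14, which oxidises the far end of fatty acids, measured 24159 and 26010 in Pemt-/- and 10110 and 1652 in Pemt+/+. Its weekly differences were 1.26 and 3.96, the second resting on a low Pemt+/+ array, and the call (adjusted p = 0.0365) was lost without week 2 (0.135), without the week as a block (0.102) and without the filter (0.0801). Lipid droplet genes rose in 3 of 17 cases: Pparg, Cd36 and Cidec, a droplet fusion protein. Cd36 measured 2073 and 2116 against 655 and 621 (1.69 ± 0.14, adjusted p = 0.00098), and Cidec 347 and 332 against 34.4 and 47.9 (2.65 ± 0.28, adjusted p = 0.00262).

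Genes of fatty acid synthesis fell more often than they rose, 5 against 2 of 23. Thrsp, a regulator of lipogenesis, measured 3523 and 12067 in Pemt-/- and 15503 and 28824 in Pemt+/+; its call (-1.69 ± 0.35, adjusted p = 0.0322) was lost without week 1 (0.16) and with quantile normalization (0.0749). Srebf1, the lipogenic transcription factor, Acss2 and Acly, which make acetyl-CoA, and Lpin1, a phosphatidate phosphatase, fell by 0.51 to 0.95. The 2 desaturases of long fatty acids rose, Fads2 by 0.79 and Fads1 by 0.70. Cholesterol synthesis genes had medians of -0.29 and -0.23, and 1 of 20 fell, Insig1, a sterol sensor (-0.63). That call was lost with median centring (adjusted p = 0.0571).

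Bile acid genes showed changes in both directions, with 2 of 24 rising and 5 falling. Besides Cyp7b1, the uptake transporter Slco1a1 measured 5342 and 6707 in Pemt-/- and 12640 and 13058 in Pemt+/+ (-1.10 ± 0.12, adjusted p = 0.00326), and Cyp2c70, which makes muricholic acid, measured 14194 and 17706 against 31440 and 36458 (-1.09 ± 0.11). Cyp7a1, the rate-limiting enzyme of the classical route, measured 492 and 1391 against 315 and 593. Its difference of 0.91 ± 0.18 passed (adjusted p = 0.0311) but was lost without week 2 (0.113), without the week as a block (0.276) and with quantile normalization (0.0785). Slco1a4, another transporter, rose by 1.63.

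Of 16 tested male-biased genes 13 fell and none rose, and 10 were past 2-fold in both weeks, with medians of -1.78 and -1.26. Cyp2d9, a testosterone hydroxylase, measured 5772 and 12461 in Pemt-/- and 29644 and 28350 in Pemt+/+ (-1.77 ± 0.23, adjusted p = 0.00561). C6 and C8b, complement components, fell by 1.24 and 1.39. Of 12 female-biased genes 4 rose: Acot3, Cd36, Abcd2, a peroxisomal transporter (2.05), and Cyp2b9, a P450 enzyme, at 2063 and 1064 against 704 and 83.5 (2.48). Cyp2b9 had an adjusted p of 0.0511 without week 2, and without the week as a block neither Cyp2b9 (0.0949) nor Abcd2 (0.106) was called. Growth hormone sets these patterns in rodents. In the list of growth hormone signalling and the IGF1 axis, 3 of 15 genes rose (Lepr, Igfbp3 and Socs2) and 1 fell (Socs3). Of these, Lepr had an adjusted p of 0.0726 without week 2, Socs3 of 0.203 without week 2 and Socs2 of 0.123 without week 1.

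P450s and conjugating enzymes fell in 8 of 23 cases and rose in 1. Ces2a, a carboxylesterase, measured 2702 and 2948 in Pemt-/- and 8988 and 8511 in Pemt+/+ (-1.63 ± 0.13, adjusted p = 0.000787). Genes of glucose metabolism fell in 3 of 19 cases: Ppp1r3b, which targets a phosphatase to glycogen (-1.23), glycogen phosphorylase Pygl (-0.71) and Pck1, of glucose synthesis (-0.50). Of the 17 genes that make phosphatidylcholine and phosphatidylethanolamine, 2 fell, Pemt and Chpt1, the last enzyme of the CDP-choline pathway, at 3002 and 3361 against 4833 and 6215 (-0.78 ± 0.12, adjusted p = 0.0112).

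Several lists held few or no calls. In the methionine cycle 1 of 18 genes fell (Bhmt2, -0.49). Among 18 genes of lipoprotein assembly 2 rose, Tm6sf2 (1.00) and Apoa4 (0.82), and the first was lost without week 2 (adjusted p = 0.0754). Of 20 acute phase genes 4 fell, Socs3, Fgb, Itih3 and Orm1, and with quantile normalization none of the 20 was called. No gene was called by limma among 15 clock genes, 23 respiratory chain genes and 11 ribosomal protein genes, where 2, 8 and 1 had an unadjusted p under 0.05. The respiratory chain medians were -0.28 and -0.14, or -0.08 and -0.06 with quantile normalization, and 22 of these 23 genes lay below 0. Without week 2, 6 of the 23 fell. Of 4 exocrine pancreas genes 1 fell (Cela1, -0.67), and of 4 adipocyte genes 1 rose (Cidec). Fabp4, with a difference of 0.68, was not called in the limma fit of all 8 arrays (adjusted p = 0.627). On the 4 early arrays alone its adjusted p in limma was 0.0396 with the week as a block and 0.111 without it.

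Genes past 2-fold in 1 week only formed a larger set than those of both weeks. At week 1, 774 genes were past 2-fold and did not pass in the same direction at week 2; 504 of them were higher and 270 lower. At week 2 the number was 700, 350 in each direction, and with median centring 458 higher and 272 lower. Of all these, 33 were past 2-fold in opposite directions in the 2 weeks and are counted in both sets. Passing the threshold in 1 week and missing it in the other is no test between weeks. In all, 20 genes (0.154%) passed the limma test of week 1 against week 2, 7 where week 1 minus week 2 was above 0 and 13 where it was below 0. No gene passed in eBayes without the trend or without the week as a block, where 928 and 1316 genes had an unadjusted p under 0.05, against 1807 in the fit reported.

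The later weeks were not equally like the 4 kinds of 1-week genes. Of the 481 genes higher at week 1 only, leaving out opposite ones, 44.1% were 2-fold or more higher at both weeks 3 and 4. The share was 22.9% for the 340 genes higher at week 2 only, 14.2% for the 260 lower at week 1 only and 3.98% for the 327 lower at week 2 only. All genes gave 6.16% higher and 1.64% lower. The array that moved between the weeks differed too. Among genes lower at week 1 only, the Pemt-/- array changed more between weeks than the Pemt+/+ array in 76.9%. Among genes higher at week 2 only it did so in 21.8%. Genes higher at week 1 only gave 50.5% and genes lower at week 2 only 59.0%, near the 56.6% of the 11111 genes past 2-fold in neither week.

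The genes of week 1 alone with the largest differences were mixed. Lcn2, lipocalin 2, an iron-binding protein of the acute phase and of neutrophils, measured 4736 and 2658 in Pemt-/- and 421 and 2644 in Pemt+/+, so that a difference of 3.44 at week 1 was 0.01 at week 2. Chek1, a checkpoint kinase, measured 201 and 214 against 10.9 and 179, and Spag5, a spindle protein, 114 and 64.6 against 3.38 and 64.5. In each case the Pemt+/+ array rose between the weeks, and for Chek1 and Spag5 the difference between weeks did not pass (adjusted p = 0.121 and 0.25). Dkk3, Bhlha15, Rundc3a and Slfn4 were of this kind with week 1 differences of 1.94 to 2.85, as was Zfp112, and none of them passed the test between weeks.

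Of the 8 genes named as lower at week 1 alone, 3 were bright. Hamp2, a paralog of hepcidin, measured 5689 and 9361 in Pemt-/- and 21986 and 8393 in Pemt+/+. Afmid, of tryptophan breakdown, measured 548 and 1343 against 2147 and 1356. Prodh, proline dehydrogenase, measured 1050 and 3515 against 3902 and 4099. At week 2 the genotypes were nearly equal for all 3; the difference between weeks passed for Hamp2 and Afmid (adjusted p = 0.00554 and 0.0405) and not for Prodh (0.128). The other 5 genes, Galnt16, Golga7b, Col25a1, Tnk1 and Jph4, stayed at 205 or less on every early array.

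At week 2 alone, the 8 genes most raised in Pemt-/- all had a lower Pemt+/+ intensity at week 2 than at week 1. Maff, a small bZIP factor, measured 164 and 149 in Pemt-/- and 156 and 10.3 in Pemt+/+, and Mcam, a cell adhesion molecule, 301 and 310 against 259 and 62.0. Ldb1, Trpv2, Il3ra, Ribc2, 1700036A12Rik and 0610009L18Rik fell likewise in Pemt+/+, and for the last the Pemt-/- array of week 2 (148) also stood apart from the other Pemt-/- arrays. None of the 8 passed the test between weeks, and their intensities did not exceed 310. Among the 8 most lowered genes, Cxcl1, a neutrophil chemokine, measured 961 and 880 against 906 and 8798, a difference of -3.30 at week 2 that did pass (adjusted p = 0.0133). Zdhhc12, a palmitoyltransferase, measured 628 and 268 against 543 and 1264 (adjusted p = 0.0983). The remaining 6, Ly6i, Fam24b, Kiss1r, Gm4788, Gm17455 and 4933435C09Rik, were at 40.5 or less on the Pemt-/- array of week 2.

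The 33 genes of opposite direction, 23 of them higher and then lower, gave early differences near 0. Tatdn1, a putative nuclease, measured 876 and 304 in Pemt-/- and 361 and 1251 in Pemt+/+, and 5 others with the widest swings (St8sia2, Acta1, Mamdc4, Dyrk3 and Sv2a) stayed at 149 or less. None of these 6 passed the test between weeks.

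The 20 genes that did pass included acute phase genes that were high on the Pemt+/+ array of week 2 and P450 genes that were higher on the Pemt-/- array of week 2 than on that of week 1. Beside Lcn2 (adjusted p = 0.00415) and Saa2, at 2921 and 3186 in Pemt-/- and 1803 and 32453 in Pemt+/+ (adjusted p = 0.00663), Saa1 measured 12203 and 17310 against 12791 and 49407 (0.0238). Sdf2l1, a chaperone of the endoplasmic reticulum, measured 4776 and 1799 against 3786 and 5470 (0.0127). For Saa1 and Saa2 the Pemt-/- arrays were close together, and the Pemt+/+ array of week 2 lay far above the others. At the late weeks Saa2 had a mean difference of -0.21 and Lcn2 one of 4.33.

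Cyp2c54, a P450 enzyme that epoxidises fatty acids, measured 2900 and 9560 in Pemt-/- and 12578 and 7328 in Pemt+/+ (week 1 minus week 2: -2.49, adjusted p = 0.00415). Cyp8b1, the sterol 12-alpha-hydroxylase that sets the kind of bile acid made, measured 1934 and 8630 against 6711 and 7625 (-1.96, adjusted p = 0.0208). Cyp2c37 measured 3439 and 5589 against 14620 and 7024 (-1.75, adjusted p = 0.0127). The week 1 gap was small at week 2 and wide again later, with late differences of -3.46, -2.42 and -3.95. Ttc39c, at 2612 and 7816 against 10281 and 11696, narrowed without closing.

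Egr1, an immediate early transcription factor, was higher in Pemt-/- at week 2. It measured 1694 and 5337 in Pemt-/- and 2118 and 961 in Pemt+/+, differences of -0.32 and 2.45 (adjusted p = 0.00415 for week 1 against week 2). Serpina4-ps1, lower in both weeks, was lower by more at week 1 (adjusted p = 0.0322). 1810055G02Rik measured 978 and 631 against 360 and 1150. For these tests the spread came from the late arrays and from the prior of eBayes, since each early week has 1 array per genotype.

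**Figure D4:**
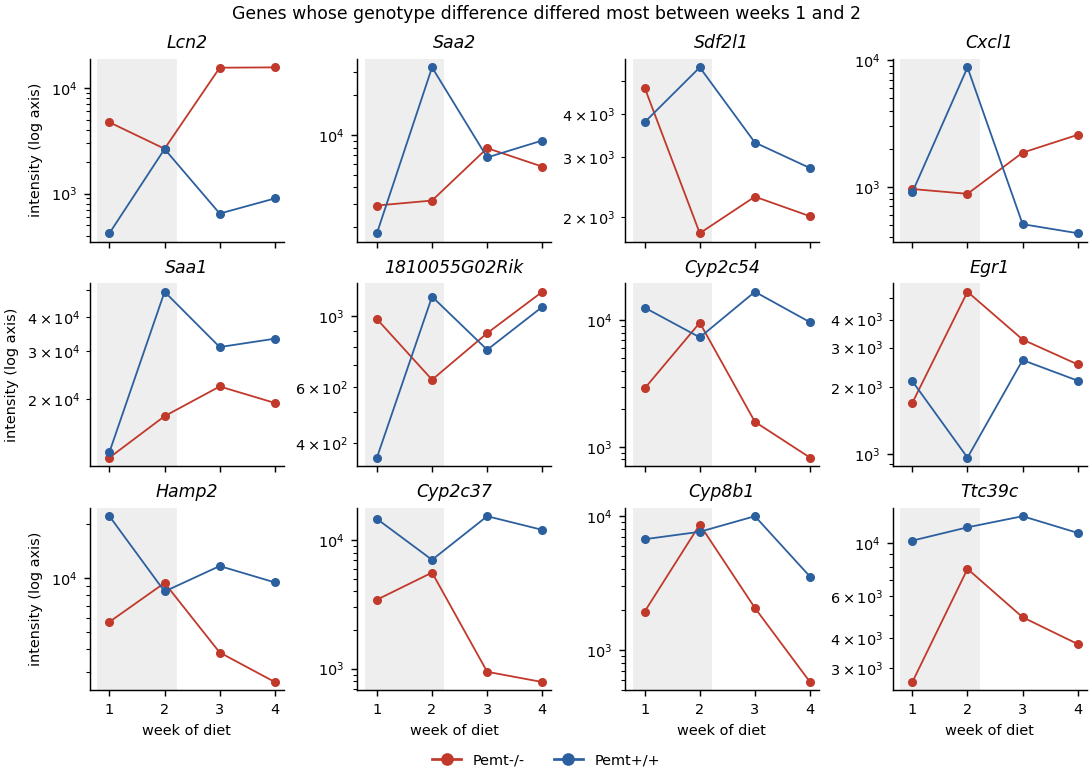
Intensity (log axes, each panel with its own range) on the 8 arrays by week of diet for the 6 genes with the smallest p in each direction of week 1 against week 2; red Pemt-/-, blue Pemt+/+, 1 array per point, weeks 1 and 2 shaded. Saa2, Saa1 and Cxcl1 peak on the Pemt+/+ array of week 2 (32453, 49407 and 8798), and the Pemt-/- line of Cyp2c54, Cyp8b1 and Ttc39c is highest in that week (9560, 8630 and 7816).

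The last comparison asked where the early weeks differed from the late ones. In limma 22 genes passed (0.17%), 12 with a higher and 10 with a lower early difference; with quantile normalization 9 passed, 4 higher and 5 lower, and no gene passed in eBayes without the trend, where 1026 had an unadjusted p under 0.05 against 1357 with it. Without the week 1 arrays 314 genes passed, without week 2 61, without week 3 59 and without week 4 85.

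Several genes of lipid-associated macrophages and of collagen were higher early and higher still late, whereas the median of the 15 resident Kupffer cell markers was 0.44 early and 0.23 late, with 9 of them higher early. Gpnmb had an early difference of 3.26 and a late one of 5.80 (early minus late: -2.54 ± 0.29, adjusted p = 0.0343), Lgals3 2.82 and 4.58, and Ctss, the protease cathepsin S, 0.61 and 2.19. Lyz1, lysozyme, measured 10276 and 9487 in Pemt-/- and 3626 and 3475 in Pemt+/+ in the early weeks, a difference of 1.47 against 2.89 later. Lyz2, the other lysozyme gene and a member of the macrophage list, measured 5144 and 3978 against 1525 and 1388. The 2 genes are closely alike, so the Lyz1 probe set may take up signal of Lyz2. Col3a1, type III collagen, went from 1.31 to 3.00 and Col1a2 from 1.55 to 3.38, with Pemt+/+ values that were lower in the late weeks. D17H6S56E-5, a transcript of unassigned function, measured 1605 and 1800 against 208 and 366, and its difference went from 2.55 to 5.13. Of the 19 lipid-associated and inflammatory macrophage genes 18 had a larger late difference, and all 24 cell cycle genes did, although none of the latter passed this test.

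Genes of fatty acid oxidation followed the reverse order. All 22 of them had a higher early than late difference, against 46.7% of all genes and against 30 of 36 hepatocyte genes and 20 of 23 genes of fatty acid synthesis, and the list median went from 0.39 and 0.48 at weeks 1 and 2 to -0.10 later. Acot3 had an early difference of 2.57 and a late one of -0.63 (early minus late: 3.20, adjusted p = 0.0369), Pdk4 1.91 and 0.09 (1.82, adjusted p = 0.0369), and Hacl1, of peroxisomal fatty acid breakdown, 0.00 and -1.51. Gstt2, a glutathione transferase, measured 3077 and 3066 in Pemt-/- and 864 and 741 in Pemt+/+ early, a difference of 1.92 that was -0.25 later. The 23 respiratory chain genes had likewise a higher early than late difference in 23 cases, with none passing the test.

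Genes that were close between genotypes at first and low in Pemt-/- later included Nr0b2, the bile acid responsive repressor SHP, at 4294 and 3022 in Pemt-/- and 3374 and 2753 in Pemt+/+ in weeks 1 and 2 (early 0.24, late -1.84). Tbx3, a T-box factor, measured 748 and 965 against 733 and 922 (0.05 and -1.76). Akr1c19, an aldo-keto reductase, measured 3144 and 1761 against 2319 and 1344 (0.41 and -1.18). Cyp2c29, a P450 enzyme, was lower from the start, at 8639 and 8465 against 20486 and 14894, and its difference of -1.03 became -3.87 (early minus late: 2.84 ± 0.21, adjusted p = 0.00956). Cholesterol synthesis genes, with late medians of -1.16, lay lower later in 19 of 20 cases, none of which passed.

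**Figure D5:**
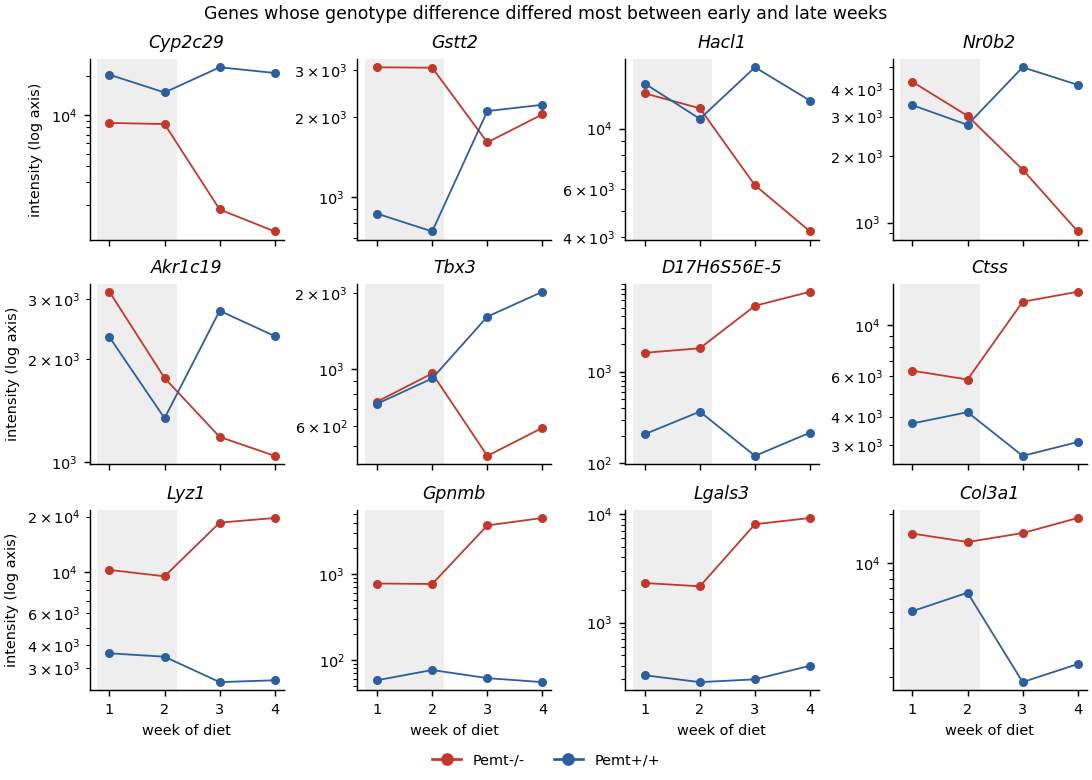
Intensity (log axes, each panel with its own range) on the 8 arrays by week of diet for the 6 genes with the smallest p in each direction of early against late; red Pemt-/-, blue Pemt+/+, 1 array per point, weeks 1 and 2 shaded. The lines of Nr0b2, Tbx3 and Hacl1 start close together and part after week 2, those of Gstt2 start apart and meet (3077 against 864 at week 1), and those of Gpnmb, Lgals3 and Lyz1 start apart and widen.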

How the data were processed

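Liver RNA of 8 arrays (1 per genotype and week) had been hybridised to Affymetrix arrays. The authors deposited 1 intensity per probe set and array, linear in scale and with a trimmed mean of 500 (2% left out at each end); the submitters' notes name Affymetrix Expression Console, with version and summary method not given in the sources used here. No detection calls were used. After 64 control probe sets were left out, 45037 remained, of which the platform annotation paired 34945 with 1 gene, 932 with several and 9160 with none; 34741 were matched to RefSeq.

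Values were log2 transformed from the deposited intensities as log2(intensity + 16). The probe sets above the 40th percentile of the mean (27022; 12949 genes) entered a two-sided limma 3.58.1 fit (R 4.3.3) with lmFit and eBayes, the latter with an intensity trend. The fit held all 8 arrays, with the week as a block, because the study compared the genotypes within weeks, and the genotype within early and within late weeks; it left 2 residual degrees of freedom and a prior of 6.68. The test of week 1 against week 2 used a fit with the genotype within week 1, within week 2 and within the late weeks, with 1 residual degree of freedom and a prior of 7.41; no late week could be left out of it. P-values were adjusted by Benjamini-Hochberg over all 27022 probe sets. The same week is the only link between arrays of the same number. Differences of 2-fold within a week have no test. Scripts were tested on simulated data. The number of arrays limits the precision. Tables and figures used Python 3.11.15.

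The text names Pemt, genes that the study followed, the 12 genes with the highest and the 12 with the lowest early difference among those called and past 2-fold in both weeks, 8 genes in each direction past 2-fold in 1 week and under 0.3 in the other (intensity of 100 or more on an early array), up to 6 genes of opposite direction, the 6 genes with the smallest p in each direction of both tests between weeks, and up to 5 members with the largest early difference in each of 39 lists; further called members of a list were named to complete its count. The genes and lists were chosen with earlier results of these data known. Alternatives were other pseudocounts, filters, folds and scalings, 1 probe set per gene, eBayes without the trend, no week block, the 4 early arrays alone, and leaving out each week.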

Additional observations from a re-analysis of the deposited data

Results flagged for a closer look

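The genotype difference passed the limma test of week 1 against week 2 in these genes. Week 1 minus week 2 on the log2 scale was 4.03 for Saa2, 3.44 for Lcn2, 3.38 for Cxcl1, 2.25 for 1810055G02Rik, 1.93 for Sdf2l1 and 1.44 for Saa1. It was -2.77 for Egr1, -2.49 for Cyp2c54, -2.12 for Serpina4-ps1, -2.10 for Hamp2, -1.96 for Cyp8b1, -1.93 for Afmid, -1.75 for Cyp2c37 and -1.39 for Ttc39c.

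The difference of the early weeks passed the test against that of the late weeks in others. Early minus late was 3.20 for Acot3, 2.84 for Cyp2c29, 2.17 for Gstt2, 2.08 for Nr0b2, 1.82 for Pdk4, 1.81 for Tbx3, 1.59 for Akr1c19 and 1.52 for Hacl1. It was -2.58 for D17H6S56E-5, -2.54 for Gpnmb, -1.83 for Col1a2, -1.76 for Lgals3, -1.70 for Col3a1, -1.58 for Ctss and -1.42 for Lyz1.

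Most of the 54 genes checked for single arrays were named for a difference between weeks on these same arrays. The chance rate of about 1 in 20 holds for genes not chosen that way and cannot be set against their count. Among 108 groups of 4 arrays of 1 genotype (54 genes), 9 held an array far from the other 3. In Pemt-/- these were the week 2 intensities of 0610009L18Rik (148), Afmid (1343), Slfn4 (47.2) and Tgfb1 (48.9) and the week 1 intensity of Golga7b (14.2). In Pemt+/+ they were the week 2 intensities of 0610009L18Rik (5.63), Galnt16 (92.3) and Zdhhc12 (1264) and the week 4 intensity of Cltc (8796).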

How the results depend on the processing

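The early test called 717 genes as reported, 417 without the intensity filter, 2 in eBayes without the trend, 300 on the 4 early arrays with no replicate block and 656 to 1119 with 1 week left out. With no replicate block (the week not in the fit) the early test called 560 genes, the test of week 1 against week 2 called 0 and that of early against late 5. Week 1 against week 2, with 20 genes as reported, gave 12 with a pseudocount of 1, 65 with 64, 3 without the filter, 38 with 1 probe set per gene and 0 without the trend. Early against late, with 22, gave 40 with a pseudocount of 64, 1 without the filter, 37 with the filter at the 60th percentile, 9 with quantile normalization, 39 with 1 probe set per gene, 0 without the trend and 59 to 314 with 1 week left out. Past 2-fold in both weeks were 397 genes, 219 with a pseudocount of 64, 1235 at 1.5-fold and 104 at 3-fold. For week 1 alone, 774 became 424 with a pseudocount of 64, 1688 without the filter, 394 at the 60th percentile, 1883 at 1.5-fold and 295 at 3-fold, and for week 2 alone 700 became 307, 1676, 261, 1772 and 223. The early difference of 1810055G02Rik was 0.28, and -0.85 to 1.40 with 1 week left out. Of 114 named genes called, 97 kept the call without week 1, 101 without week 2, 101 with quantile normalization and 87 with no replicate block. The cause of these changes was not tested.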
